A study of Caenorhabditis elegans with 24 samples.

Results

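The emerin contact map of larvae that carry the mutation cec-4(ok3124) and wild-type lamin (GFP::LMN-1) is the ratio of 2 groups of DamID libraries. It rests on 6 of the 24 libraries of the series, which were chosen by their group labels: 3 labelled Dam-EMR_GFP-LMN_cec4 and 3 labelled GFP-Dam_GFP-LMN_cec4. In the Dam-EMR group the bacterial adenine methylase Dam is fused to emerin (Dam::EMR-1), and in the GFP-Dam group it is fused to nuclear GFP and reports how accessible the chromatin is. Both groups share the cec-4 mutation, the GFP::LMN-1 protein, the un-induced hsp-16.41 heat shock promoter that gives trace levels of the fusion, and myo-3p::FLP, the recombinase that switches the fusion on. The myo-3 promoter is active in muscle and the sample labels name body wall muscle, whereas the design text names the intestine. The libraries hold genomic DNA of whole L3/L4 larvae, so expression markers cannot check which cells were methylated. The larvae had grown for 26 h at 22.5 °C on bacteria that lack Dam, 200 ng of DNA was cut with DpnI for 6 h, and the 8 groups of the series were grown in parallel in each of 3 biological rounds. The libraries of a round were therefore treated as a pair. The wild-type lamin strain with intact cec-4, which has its own Dam-EMR and GFP-Dam libraries, served for comparison.

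CEC-4 is a chromodomain protein of the inner nuclear membrane that binds methylated lysine 9 of histone H3 and anchors such chromatin at the nuclear edge in C. elegans embryos. Emerin (EMR-1) is a LEM-domain protein of the same membrane that binds lamin. In worms the repeat-rich and heterochromatic arms of the autosomes lie close to the nuclear envelope, while the gene-dense chromosome centres lie further inside. In DamID a GATC site near the fusion protein becomes methylated, DpnI cuts only methylated sites, and the amplified fragments mark the contacts.

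The Dam-EMR libraries were shallower and more variable than their GFP-Dam partners. In rounds 1, 2 and 3 the Dam-EMR libraries held 731892, 3108540 and 6936077 nuclear reads in 100 kb bins, and the GFP-Dam libraries held 19442775, 3486206 and 8374872. The round 1 Dam-EMR library, with a median of 29 reads in a 10 kb bin, met a GFP-Dam partner with a median of 579. In round 2 the Dam-EMR library left 21.7% of the 10 kb bins empty although it was deeper than that of round 1, which left 8.41% empty. Round 3 left 1.32% of the bins empty in Dam-EMR, and the GFP-Dam libraries left between 0.758% and 1.89% empty. The empty bins of round 2 were 25.8% of the bins on autosomal arms, 17.1% of those in autosomal centres and 16.0% of those on X. The ribosomal DNA bin at the right end of chromosome I (ce11, I:15060001-15070000) took 5.28%, 9.74% and 11.8% of the reads of the Dam-EMR libraries and 11.9%, 11.1% and 24.2% of the GFP-Dam libraries, so the groups overlapped there. In the 100 kb counts, the bin V:8600001-8700000 took 13.3% of the round 1 Dam-EMR reads and the bin III:6700001-6800000 took 11.2% of those of round 3. In the 10 kb counts, from which the ribosomal DNA shares were taken, these libraries held fewer nuclear reads, 635374 and 6163102. The counts of the bin sizes thus do not hold the same reads.

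The genes that the constructs and strains were built from were read out first, in the 10 kb bins (1-based ce11 coordinates) that hold their midpoints, as CPM after TMM normalisation, called normalised reads here. The bin of cec-4 (IV:7570001-7580000) held 257, 539 and 287 normalised reads in Dam-EMR and 254, 198 and 208 in GFP-Dam. The bin is longer than the gene, so its reads are no check of the mutation. The bin of emr-1 itself (I:1840001-1850000) held 2641, 252 and 245 normalised reads in Dam-EMR against 143, 236 and 154 in GFP-Dam. The bin of lmn-1, the worm's lamin gene (I:8760001-8770000), held 7390, 278 and 253 against 123.4, 325 and 115. The bin of hsp-16.41 (V:1800001-1810000) held 2962, 232 and 249 against 146, 189 and 262. At all 3 of these loci the round 1 Dam-EMR library stood far above the other 5 libraries. Of these 3 only emr-1 had all Dam-EMR libraries above all GFP-Dam libraries, by the margin of 245 against 236. With library totals in place of TMM the groups overlapped at emr-1 as well. Whether reads from the constructs add to these bins was not tested. The bin of myo-3, the muscle myosin whose promoter drives the recombinase (V:12230001-12240000), held 463, 549 and 295 against 673, 431 and 417, with the groups overlapping. The bin of unc-119, a neuronal gene widely used to mark transgenes, held 16.99, 34.1 and 40.5 normalised reads against 44.3, 41.4 and 42.7, the Dam-EMR values being lower without overlap under TMM alone among 4 scalings.

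Dam-EMR stood above GFP-Dam mainly on the left arm of II and the right arm of V in rounds 1 and 3, and below it there in round 2. No 100 kb bin was called. The paired edgeR quasi-likelihood test called 0 of 1004 bins higher in Dam-EMR (0.0%) and 0 lower (0.0%) at a Benjamini-Hochberg adjusted p under 0.05, and the smallest adjusted p was 0.184. At an unadjusted p under 0.05 it gave 40 bins higher (3.98%) and 21 lower (2.09%). DESeq2 called 0 bins higher and 1 lower, and gave 46 and 22 bins at an unadjusted p under 0.05. The 3 Dam-EMR values all lay above the 3 GFP-Dam values in 80 bins (7.97%) and all below in 61 bins (6.08%). That split depended on the scaling: it was 46 against 94 with library totals, 71 against 72 with RLE factors and 69 against 70 with each library scaled to its median bin.

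The bins that stood highest lay mostly on autosomal arms. Of the 40 bins higher at an unadjusted p under 0.05, 36 were among the 545 autosomal arm bins (6.61%), 3 among the 281 autosomal centre bins (1.07%) and 1 among the 178 bins of X (0.562%). Bins whose Dam-EMR values were all above GFP-Dam made up 10.1% of the arm bins, 5.34% of the centre bins and 5.62% of the X bins. With library totals these shares were 5.87%, 3.91% and 1.69%. No test compared these shares.

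Because no bin was called, the bins described from here were chosen by their small unadjusted p, after their values had been seen, and none passed the adjusted test in edgeR. The bin with the smallest p was lower in Dam-EMR: IV:10500001-10600000, in the centre of chromosome IV, holds him-8 and its relatives zim-1, zim-2 and zim-3, zinc finger genes whose products bind the meiotic pairing centres. Its Dam-EMR libraries held 403, 733 and 779 normalised reads against 864, 1529 and 1260 in GFP-Dam. All 3 Dam-EMR values lay below all 3 GFP-Dam values, and the ratios of the pairs were close to each other, at -1.07, -1.07 and -0.72 on the log2 scale. The fitted log2 ratio was -0.95 with an SE of 0.22 (edgeR adjusted p = 0.184), and this is the bin that DESeq2 called, with an adjusted p of 0.0467.

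Among the bins that stood higher, III:12900001-13000000 on the right arm of III had the smallest p. It holds unc-25, which encodes the glutamate decarboxylase that makes GABA, col-97 for a cuticle collagen, npp-25 for a nuclear pore protein and flp-14 for neuropeptides. Dam-EMR held 2739, 802 and 786 normalised reads there against 472, 637 and 470 in GFP-Dam. The groups did not overlap, but the round 1 pair alone was at 2.56 on the log2 scale and the other pairs at 0.33 and 0.72. The fitted log2 ratio was 1.18 with an SE of 0.30 (edgeR adjusted p = 0.240).

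Several of the higher bins were even across the rounds. The bin V:20600001-20700000, close to the right end of V, holds mlt-11, a gene needed for moulting, the chemoreceptor genes srxa-14 and srxa-15, and ttr genes of the transthyretin-related family. It held 791, 816 and 889.6 normalised reads in Dam-EMR against 481, 523 and 463 in GFP-Dam, with a log2 ratio of 0.77 and an SE of 0.22 (edgeR adjusted p = 0.412). The bin V:2200001-2300000 on the left arm of V holds cyp-33C12 of the cytochrome P450 family and a cluster of nuclear hormone receptor genes that includes nhr-56, nhr-128, nhr-103 and nhr-18. It held 586, 471 and 627 against 280.3, 277 and 309, a log2 ratio of 0.95 with an SE of 0.29. The bin II:900001-1000000 on the left arm of II holds a cluster of F-box genes, fbxc-24, fbxc-27, fbxc-31 and fbxc-36 among them, which encode presumed adaptors of ubiquitin ligases. It held 479.8, 400.0 and 523 against 205, 250.4 and 227, a log2 ratio of 1.03 with an SE of 0.35. In these 3 bins every Dam-EMR library was above every GFP-Dam library.

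The arm bins were not alone: III:7000001-7100000 lies in the centre of III and holds col-8, the formin gene cyk-1, the DREAM complex gene lin-37 and the nuclear hormone receptor gene nhr-9. It held 1145, 1108 and 1384 normalised reads in Dam-EMR against 758, 619.6 and 768 in GFP-Dam, a log2 ratio of 0.76 with an SE of 0.22 (edgeR adjusted p = 0.412). On the left arm of I the bin I:1800001-1900000, which holds emr-1 and the Gq alpha subunit gene egl-30, was at 3137, 2406 and 1402 against 1111, 1269 and 1042. Its log2 ratio of 0.95 (SE 0.30) includes the emr-1 reads given above.

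Other high bins were uneven across the rounds. At V:18700001-18800000, which holds 7 genes of the C-type lectin family, clec-250 and clec-257 among them, Dam-EMR held 7636, 212 and 831 normalised reads against 223, 291 and 359. The log2 ratio was 1.75 (SE 0.61), with rounds 1 and 3 above all GFP-Dam libraries and round 2 below them all. At V:4200001-4300000, a cluster of srt chemoreceptor genes, Dam-EMR held 440.0, 1014 and 118.8 against 166, 149 and 124, so that round 3 was below every GFP-Dam library. At IV:13400001-13500000, which holds the cytochrome P450 gene cyp-31A5, the transcription factor genes aptf-2 and fezf-1 and others, Dam-EMR held 2898, 609 and 314 against 264, 449.6 and 266.

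Among the lower bins, I:8300001-8400000 in the centre of I holds cep-1, the worm's p53 gene, the tubulin gene tba-5 and the ribosomal protein gene rpl-23A.2. It held 604, 742 and 544 normalised reads in Dam-EMR against 952, 950.4 and 1033 in GFP-Dam, a log2 ratio of -0.65 with an SE of 0.22. The bin V:6000001-6100000 holds fos-1, a transcription factor gene, and rpt-2, a subunit gene of the proteasome, and held 382, 737 and 722 against 861, 955 and 1022. Its log2 ratio was -0.68 with an SE of 0.22. The bin I:5000001-5100000 holds pat-10, the troponin C gene of body wall muscle, and the formin gene fhod-1, and it held 628, 348 and 525 against 699, 713 and 675. Its log2 ratio was -0.52 with an SE of 0.24 (edgeR adjusted p = 0.786), and in each of these 3 bins the groups did not overlap.

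**Figure D1:**
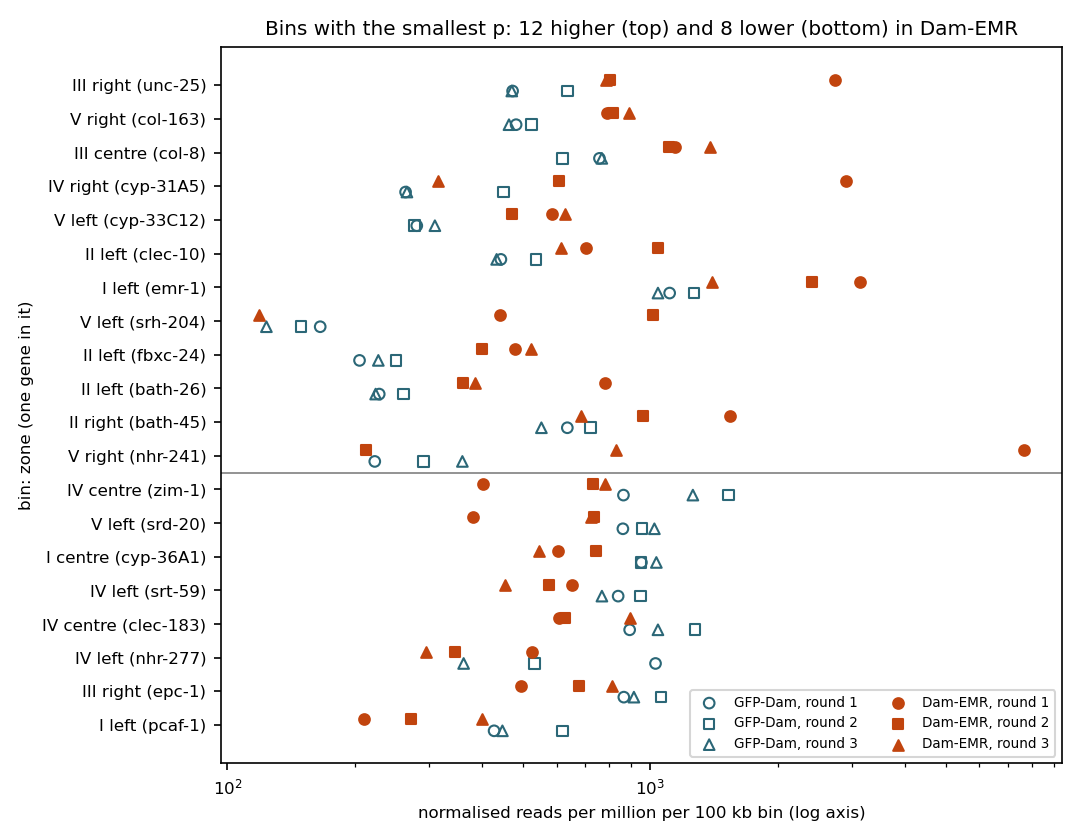
Normalised reads (CPM after TMM, log axis) of the 6 libraries in 100 kb bins, filled symbols for Dam-EMR and open symbols for GFP-Dam, with a symbol shape for each round. The upper 12 bins are those with the smallest p among higher bins and the lower 8 those among lower bins; in several upper bins the round 1 Dam-EMR library stands far right of the others, as at 7636 in the bin of the C-type lectin genes on V (labelled nhr-241), whereas the bin of zim-1 has all 3 Dam-EMR libraries on the left.

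The pairs differed more from each other than the ratio departed from even. Across the 1004 bins, Pearson's r of the log2 ratio was -0.25 between rounds 1 and 2, 0.33 between rounds 1 and 3, and 0.002 between rounds 2 and 3; these are descriptions over bins, and the rounds have separate libraries. The read profiles of the 3 GFP-Dam libraries were alike, with r of 0.96 to 0.98, and those of the Dam-EMR libraries less so, with r of 0.70 to 0.89. The median SD of the log2 level over 3 libraries was 0.45 in arm bins, 0.31 in centre bins and 0.35 on X for Dam-EMR, and 0.17, 0.16 and 0.15 for GFP-Dam. Relative to the median bin of each pair, 137 of the 1004 bins (13.6%) had a positive log2 ratio in all 3 pairs and 150 (14.9%) a negative ratio in all 3.

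Round 2 was the round that differed along the chromosomes. In autosomal bins lying 10 to 15% of the chromosome length from an end, the mean log2 ratio was 0.57 in round 1, -0.35 in round 2 and 0.30 in round 3. From 45 to 50%, in the middle of the chromosome, it was -0.08, -0.01 and 0.02. Rounds 1 and 3 thus had their highest autosomal values in the arms, away from the very ends, where round 2 had its lowest. On X the bins 20 to 25% from an end were at -0.60, 0.03 and -0.16.

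**Figure D2:**
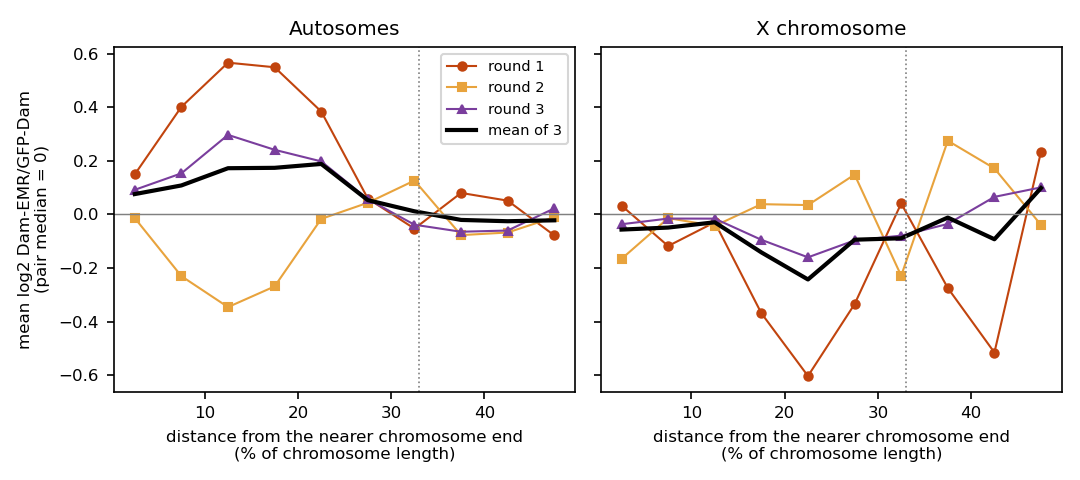
Mean log2 ratio of Dam-EMR over GFP-Dam, with the median bin of each pair at 0, against distance from the nearer chromosome end in percent of chromosome length, for autosomes and X. The coloured lines are the 3 rounds, the black line their mean and the dotted line the arm boundary at 33%; at 10 to 15% on the autosomes round 1 is at 0.57, round 3 at 0.30 and round 2 at -0.35.

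Runs of neighbouring bins with the same sign in all 3 pairs were short. On the left arm of II, the bins from II:2400001 to 2700000, with sri chemoreceptor genes and bath-13, had mean log2 ratios of 1.16, 0.32 and 0.48 in rounds 1, 2 and 3. On the right arm of V, the bins from V:17500001 to 17800000, with further chemoreceptor genes, were at 1.26, 0.38 and 0.43. Near the right end of X, the bins from X:16300001 to 16600000, which hold the collagen IV gene let-2 and the acetylcholinesterase gene ace-1, were at -0.48, -0.13 and -0.36. Each run was chosen after its values were seen.

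The excess of the arms over the centre was measured as the mean log2 ratio of the outer 33% of each autosome at each end minus that of the middle, within each pair. It was 0.31 in round 1, -0.09 in round 2 and 0.19 in round 3, a mean of 0.14 ± 0.21 (SD, n = 3 pairs). The arms were thus above the centre in 2 of 3 pairs, and the mean was smaller than the spread (exact two-sided sign-flip test, p = 0.5, where the smallest p that 3 pairs allow is 0.25). Both fusions had fewer reads on the arms than in the centre: the arm minus centre difference of the log2 level was -0.45, -0.85 and -0.74 in Dam-EMR and -0.76, -0.76 and -0.93 in GFP-Dam. The positive value of round 1 therefore came with the smallest arm deficit among the 6 libraries, in the shallowest of them, and its part in the result was not tested.

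Chromosome by chromosome, I had a positive value in all 3 pairs, at 0.01, 0.05 and 0.18, with a mean of 0.08 ± 0.09 (SD, n = 3). X was negative in all 3, at -0.07, -0.12 and -0.10, with a mean of -0.09 ± 0.03 (SD, n = 3). V spanned the widest range, at 0.55, -0.15 and 0.30, and II followed at 0.45, -0.19 and 0.25. For I and X the exact sign-flip p was 0.25, the smallest possible with 3 pairs.

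In the strain with intact cec-4 the autosomal arm excess was 0.12, 0.43 and 0.06, a mean of 0.21 ± 0.20 (SD, n = 3 pairs). The mutant mean was lower by a log2 difference of -0.07, which is within the spread of either strain. An exact two-sided permutation test of 3 against 3 pairs gave p = 0.8, where the smallest possible p is 0.1. That test did not match the strains by round, although they were grown in parallel. Within rounds, the mutant was above the intact strain in rounds 1 and 3 and below it in round 2. Without round 2, the round with the lowest mutant value and the highest intact value, the difference was 0.16 in the other direction. Its exact permutation p was 0.333, the smallest possible with the pairs that remain. Bin by bin, the edgeR interaction over 12 libraries called 0 of 1004 bins as higher (0.0%) and 0 as lower (0.0%) in the mutant, with 5 (0.498%) and 7 (0.697%) at an unadjusted p under 0.05. DESeq2 also called 0, with 8 and 6 at an unadjusted p under 0.05, and the smallest adjusted p in edgeR was 0.999.

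**Figure D3:**
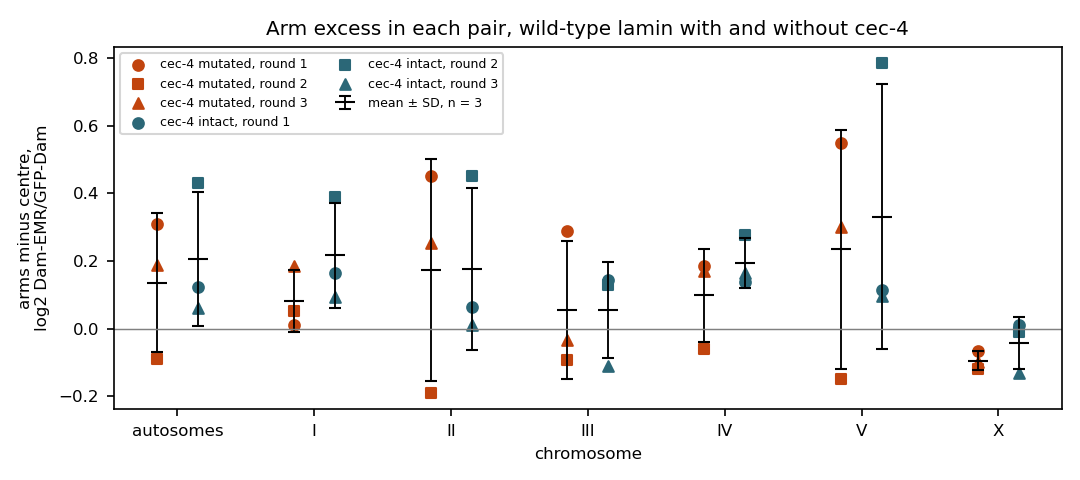
Arm minus centre difference of the log2 Dam-EMR over GFP-Dam ratio for all autosomes together and for each chromosome, with cec-4 mutated or intact; points are pairs, and bars are the mean ± SD of 3 pairs. The mutant's autosomal points are at 0.31, -0.09 and 0.19 and those of the intact strain at 0.12, 0.43 and 0.06, so the strains overlap, and only X has all 3 mutant points below 0.

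The chromosomes were divided into 18 zones, the left arm, centre and right arm of each, and the pair ratios of a zone were tested with limma. It called 0 zones higher (0.0%) and 0 lower (0.0%), with 0 at an unadjusted p under 0.05 and a smallest adjusted p of 0.696. The mean was above 0 in 9 of the 10 autosomal arm zones, and the left arm of I was the exception at -0.07. In round 1, 9 arm zones were above 0, in round 3 all 10, and in round 2 only 3. The left arm of II had a mean of 0.31 ± 0.45 (SD, n = 3), from 0.76, -0.14 and 0.31. The right arm of V had a mean of 0.30 ± 0.60 (SD, n = 3), from 0.82, -0.36 and 0.43. These zones had the highest means and also the widest spread. The left arm of V, at 0.40, 0.02 and 0.16, and both arms of III were above 0 in all 3 pairs, while the centre of I and the left part of X were below 0 in all 3.

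Leaving out round 2 made calls on those arms. limma then called the left arm of II at 0.54 (adjusted p = 0.000592) and the right arm of V at 0.63 (adjusted p = 0.000194). Every zone had the same SE of 0.104 in that fit, so these p-values rest on a spread shared by all zones. They do not reflect each arm's own spread between rounds 1 and 3, at 0.76 and 0.31 on II and 0.82 and 0.43 on V. edgeR called 13 bins of 100 kb, all higher in Dam-EMR and all on autosomal arms, of which 6 were on the right arm of V. The left-out round 2 pair had the same sign in only 3 of the 13. At V:17000001-17100000, a bin of chemoreceptor genes such as sri-9, srh-131 and srbc-14, Dam-EMR held 846, 5.56 and 233 normalised reads against 82.3, 102 and 85.8 in GFP-Dam. Rounds 1 and 3 were above every GFP-Dam library there, and round 2 below them all. At 10 kb the same omission called 4 bins higher, 3 of them on the right arm of V, at srbc-83, at str-150 and at the lectin gene clec-248, where the round 2 Dam-EMR library held 0 reads.

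Leaving out round 1 called 7 bins higher and 1 lower, and only 2 of the 8 had the same sign in the round 1 pair: the bin of cyk-1 and lin-37 and the bin of the zim genes. At X:10400001-10500000, which holds elt-2, the GATA factor gene of the intestine, Dam-EMR held 828, 4946 and 3678 normalised reads against 2525, 1643 and 1495. There round 1 was below every GFP-Dam library and rounds 2 and 3 above them all. Leaving out round 3 called 2 bins, those of cyp-31A5 on IV and of the srt cluster on V.

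**Figure D4:**
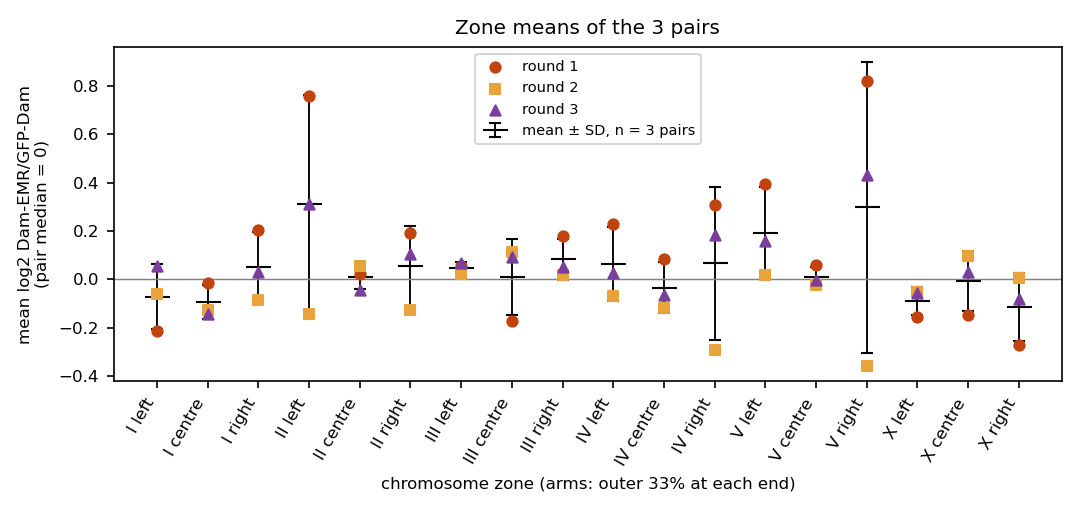
Mean log2 Dam-EMR over GFP-Dam ratio of the 18 chromosome zones, with the median bin of each pair at 0; points are rounds, and bars are the mean ± SD of 3 pairs. On the right arm of V round 1 is at 0.82 and round 2 at -0.36, and on both arms of III the 3 rounds lie above 0.

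At gene-sized resolution the spread was larger. edgeR called 0 of 9654 bins of 10 kb higher (0.0%) and 0 lower (0.0%), with 107 (1.11%) and 113 (1.17%) at an unadjusted p under 0.05 and a smallest adjusted p of 0.999. On data simulated for these bins the same test missed most of the changes put in, so a bin that was not called at 10 kb is not shown to be even. DESeq2 called 3 bins higher and 0 lower, with 257 and 339 at an unadjusted p under 0.05. The log2 ratios of 10 kb bins are given relative to the median bin, since that median was itself at -0.27 with TMM and at -0.17 with RLE factors. Dam-EMR values were all above GFP-Dam in 508 bins (5.26%) and all below in 907 (9.4%), and with RLE factors in 606 and 746.

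The bins that DESeq2 called were among those with the smallest edgeR p. IV:5110001-5120000, which holds tkr-3, a tachykinin receptor gene, held 107, 82.4 and 62.1 normalised reads in Dam-EMR against 8.55, 8.72 and 7.67 in GFP-Dam (relative log2 ratio 3.57, SE 0.83; DESeq2 adjusted p = 0.0164). III:9200001-9210000 held 350.2, 139 and 82.7 against 25.7, 25.9 and 21.5 (DESeq2 adjusted p = 0.0322). In both bins the groups were far apart, with the edgeR adjusted p at 0.999. The remaining bin, III:12960001-12970000 in the unc-25 region, held 2353, 18.4 and 176 against 21.2, 9.54 and 24.8, so round 2 lay between GFP-Dam libraries (DESeq2 adjusted p = 0.0439).

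Bins that were even over the rounds included II:14840001-14850000 with the cadherin gene cdh-7, at 129, 94.2 and 151 normalised reads against 34.4, 30.5 and 31.04. On the lower side, IV:3760001-3770000 with the ephrin gene vab-2 held 11.8, 5.10 and 5.85 against 66.6, 53.7 and 79.7. X:4950001-4960000 with the tyramine receptor gene tyra-3 held 79.7, 67.9 and 105.03 against 239, 239 and 272. The groups did not overlap in any of these 3 bins, whose relative log2 ratios were 2.21, -2.96 and -1.32.

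In all, 25 lists of genes were followed through the 10 kb bins, a gene being placed by its midpoint, and no list held a called bin. In 15 of the 25 lists the median of round 2 had the opposite sign to rounds 1 and 3, and in 3 lists all 3 medians were above 0. These 3 were the MATH-BATH, intestine and construct gene lists. The chemoreceptor genes, whose products detect odours and other chemicals, changed sign between rounds: the median over their 742 tested bins was 0.85 in round 1, -1.12 in round 2 and 0.55 in round 3, against 0 for all tested bins. Of these bins 59 (7.95%) lay wholly above GFP-Dam and 35 (4.72%) wholly below, beside 5.26% and 9.4% of all bins. Autosomal arms held 72.0% of the chemoreceptor bins, against 53.4% of all tested bins. The F-box genes followed the same course, with medians of 0.69, -0.67 and 0.43 over 200 bins, of which 17 (8.50%) lay wholly above and 12 (6.00%) below, or 20 and 9 with RLE factors.

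The MATH-BATH genes, which encode presumed ubiquitin ligase adaptors, were above 0 in each round, at 1.08, 0.10 and 0.34. Autosomal arms held 86.4% of their bins, against 53.4% of all tested bins. Of their 44 bins, 8 (18.2%) lay wholly above GFP-Dam and 1 (2.27%) wholly below, beside 5.26% and 9.4% of all bins. The bin of bath-26, bath-47 and bath-33 (II:1600001-1610000) held 61.4, 169.9 and 76.2 normalised reads in Dam-EMR against 36.4, 22.6 and 33.4 in GFP-Dam, a relative log2 ratio of 1.87 (SE 0.71). The cytochrome P450 genes had 6 of 53 bins (11.3%) wholly above and 1 (1.89%) wholly below, with medians of 0.59, -0.06 and 0.12. For these genes RLE factors gave 7 and 0, but each library scaled to its median bin gave 4 and 1. Their smallest p fell on the bin of cyp-33C12 and the chemoreceptor gene srt-40, at 157, 49.8 and 55.0 against 15.2, 23.4 and 8.80 (relative log2 ratio 2.65, SE 0.83).

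Body wall muscle genes, the list nearest to the labelled tissue, ran the other way. Their 47 bins had medians of -0.79, 0.76 and -0.30 in rounds 1, 2 and 3. Of these bins 0 lay wholly above GFP-Dam and 8 (17.02%) wholly below, beside 5.26% and 9.4% of all bins. The other scalings gave 7 or 8 below. The bin of the troponin C gene pat-10 held 70.6, 36.9 and 69.0 normalised reads against 180.3, 171 and 113, a relative log2 ratio of -1.15 (SE 0.55, edgeR adjusted p = 0.999). The bin of the alpha-actinin gene atn-1 held 57.5, 77.7 and 93.8 against 138, 185 and 128, and that of deb-1, the vinculin gene of muscle attachments, held 71.9, 80.4 and 154 against 172, 160.0 and 192. All 3 loci are among the 8 bins wholly below GFP-Dam: pat-10 has the smallest p of the list, and atn-1 and deb-1 were chosen after their values were seen. They do not stand for the whole list, whose median was positive in round 2. Ribosomal protein genes had medians of -0.54, 0.55 and -0.19, and developmental transcription factors -0.70, 0.58 and -0.09.

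Intestinal genes, the tissue that the design text names, had medians above 0 in all rounds, at 1.00, 0.09 and 0.37 over 23 bins. Of these bins 2 (8.70%) lay wholly above GFP-Dam and 1 (4.35%) wholly below, beside 5.26% and 9.4% of all bins. With each library scaled to its median bin these were 3 and 0, but with library totals 1 and 1. The bin of the yolk protein gene vit-2 held 188, 140 and 99.3 normalised reads against 88.1, 39.3 and 41.2, without overlap (relative log2 ratio 1.67, SE 0.54). These bins describe where the genes lie and do not measure which tissue was methylated. The genes of histone H3 lysine 9 methylation and its readers had 1 of 24 bins above (4.17%) and 2 below (8.33%), close to the shares of all bins. At hrde-1, a nuclear Argonaute gene whose pathway leads to that mark, Dam-EMR held 70.6, 6.28 and 81.2 against 114, 109 and 92.1. Genes of the nuclear envelope had 4 of 39 bins above (10.3%) and 5 below (12.8%). Among them npp-15, a nuclear pore gene, was at 306, 128 and 116 against 71.6, 59.98 and 82.95.

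For the remaining lists, the shares of all tested bins are again 5.26% wholly above and 9.4% wholly below. Nuclear hormone receptor genes had 8 of 199 bins above (4.02%) and 11 below (5.53%), but 14 and 7 with library totals. Cuticle collagens had 10 of 128 above (7.81%) and 12 below (9.38%), but 12 and 8 with RLE factors. C-type lectins had 17 of 168 above (10.1%) and 12 below (7.14%). The piRNA genes are clustered on chromosome IV but also lie elsewhere, as in III:9200001-9210000. All bins with piRNA genes together had a median of -0.02, with 75 of 1268 (5.91%) above and 128 (10.1%) below, close to the shares of all bins. Heat shock genes, whose family gave the promoter of the constructs, had 0 of 16 above and 2 (12.5%) below, or 0 and 0 with RLE factors. The insulin-like genes had 0 of 25 above and 5 (20.0%) below, among them ins-25 at 30.1, 95.4 and 62.5 normalised reads against 124, 160.0 and 109.

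Single genes of the other lists, each in the bin with the smallest p of its list, also varied between rounds. The bin of unc-46, which helps load GABA into synaptic vesicles, held 2.61, 10.99 and 18.3 normalised reads against 55.2, 75.2 and 43.6 (relative log2 ratio -2.40, SE 1.05). Its round 1 Dam-EMR value rests on 2 reads. The bin of hlh-8, the Twist transcription factor gene of the postembryonic mesoderm, held 133, 32.6 and 75.2 normalised reads against 168, 194 and 144 (relative log2 ratio -0.99, SE 0.58). Both were below GFP-Dam in every library. The bin of fbxc-8 among the F-box genes held 260.0, 114 and 88.9 normalised reads against 37.2, 39.5 and 44.9 (relative log2 ratio 2.04, SE 0.59). The bin of the lectin gene clec-73 held 273, 97.3 and 90.1 normalised reads against 31.8, 62.7 and 37.3 (relative log2 ratio 1.92, SE 0.64). Both of these were above GFP-Dam in every library, with round 1 the highest. The bin of pgl-3, a component of the germ granules, held 233, 164 and 40.7 normalised reads against 51.5, 69.0 and 33.3, and that of bli-1, a cuticle collagen gene, held 374, 16.9 and 34.0 normalised reads against 20.9, 9.54 and 18.2. In both bins round 1 was far above GFP-Dam and the groups overlapped.

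**Figure D5:**
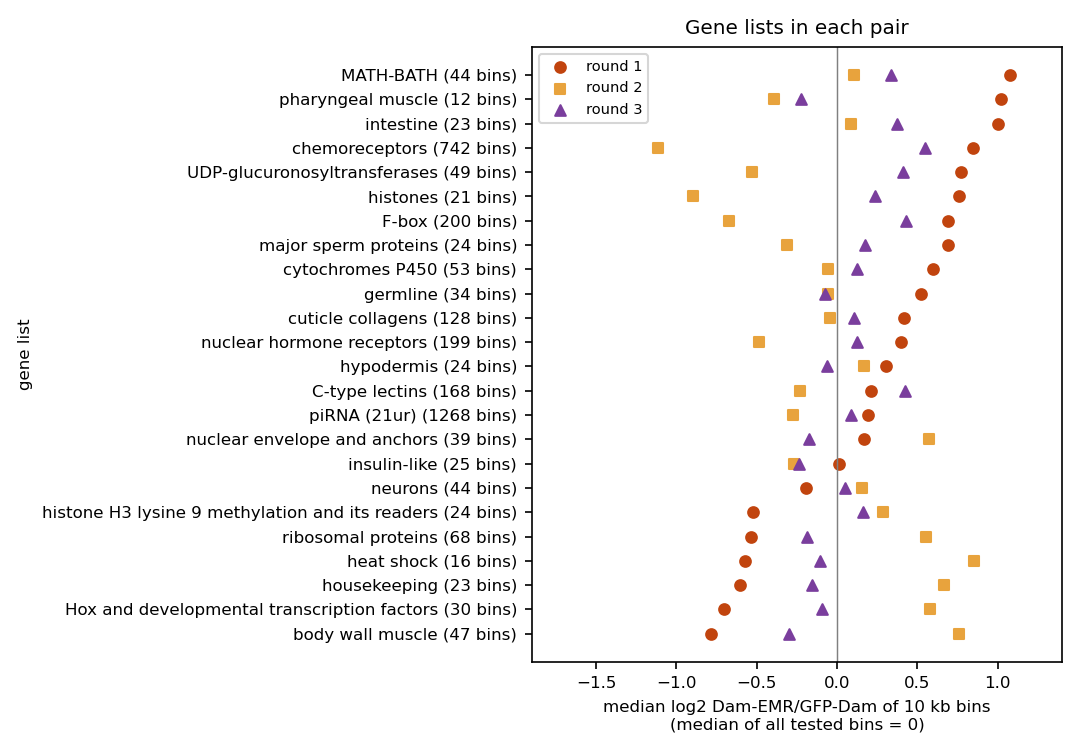
Median log2 Dam-EMR over GFP-Dam ratio of the 10 kb bins of the gene lists in each round, with the median of all tested bins at 0. The construct gene list is not drawn. Chemoreceptor genes are at 0.85, -1.12 and 0.55 in rounds 1, 2 and 3, and body wall muscle genes at -0.79, 0.76 and -0.30, so round 2 lies on the other side of 0 from both other rounds.

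The authors' deposited table of 100 kb log2 ratios averages the ratios of the 3 pairs before the log is taken, which gives the highest pair more weight than a mean of log2 ratios does. Bins above 0 numbered 506 of 1004 in the authors' deposited table and 427 by the mean of the 3 log2 ratios, and 79 bins were above 0 in the former and below 0 in the latter. Of the 45 bins above 1 in the authors' deposited table, 37 had their highest ratio in round 1, 39 lay on autosomal arms and 14 were positive in all 3 pairs.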

How the data were processed

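DamID reads of 6 libraries were analysed: 3 Dam-EMR and 3 GFP-Dam. The authors deposited counts of mapped reads, not normalized, in bins of 100 kb and 10 kb; the build is ce11 per the submitters' processing notes. The aligner is not given in the sources used here. Further, the authors' deposited log2 values were matched at 100 kb by the log2 of the mean of the 3 same-numbered ratios of library-scaled counts; the 10 kb log2 values were not used. Mitochondrial bins and 2 bins of 10 kb with the value 1 in all 24 libraries were left out, which left 1005 and 10028 bins.

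Counts were tested with edgeR 4.0.16 (TMM, filterByExpr, quasi-likelihood, round as block, SE from the F statistic) in R 4.3.3, with DESeq2 1.42.0 as the alternative. Zones were tested with limma 3.58.1 on pair ratios with 1 read added. The edgeR and limma tests were checked on simulated data. There edgeR recovered most changes at 100 kb, with a few false calls, and missed most at 10 kb. The edgeR simulation gave both fusions the same spread in a bin and put in no round effect, whereas the real Dam-EMR libraries varied more. Its recovery at 100 kb therefore does not show how many real changes would be found. Benjamini-Hochberg adjusted p under 0.05 was called. Rounds pair the libraries because the design text states that every strain was raised side by side in each biological round; deviations of same-numbered libraries correlated at -0.07, -0.07 and 0.10. Genes came from a RefSeq annotation of WBcel235 by midpoint, and all but 1 of the listed symbols matched. The members and gene lists were chosen with earlier results of these data known. By the rule for named genes, a list without called bins is represented by the gene in its bin of smallest p, with the construct genes always given; other genes and bins were chosen after their values were seen. Reads carry no molecular identifiers and PCR copies are not separate molecules, so a floor covers counting error alone. The p-values reflect the spread among these samples. In the limma fits without round 2 or round 3 that spread was shared by all zones.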

Additional observations from a re-analysis of the deposited data

Results flagged for a closer look

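Mitochondrial reads were outside the contact map and appeared above the GFP-Dam level in 2 Dam-EMR libraries. The round 1 Dam-EMR library held mitochondrial reads at 83.3 RPM (61 reads) and the round 3 library 14.7 (102 reads), whereas GFP-Dam held 0.206 (4 reads) in round 1 and 0.358 (3 reads) in round 3. Round 2 held 0 reads in both fusions, which allows up to 0.965 RPM in Dam-EMR and 0.861 RPM in GFP-Dam at a floor of 3 reads.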

How the results depend on the processing

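Of the called counts at 100 kb, leaving out each round in turn gave 2 to 13 bins higher and 0 to 1 lower; DESeq2 gave 1 lower. At 10 kb leaving out a round gave 0 to 4 bins higher, and DESeq2 gave 3. Leaving out a round gave 0 to 2 zones higher. RLE factors, library totals, no filter on low counts, limma on pair ratios and omission of bins over 1% of a library left all bin counts at 0 called. Without the replicate block edgeR also called 0 bins at either size (smallest adjusted p 0.584 and 0.946), 0 zones, and the arm excess had an exact permutation p of 0.4. The mutant minus intact difference in arm excess reversed to 0.16 without round 2 and ran from -0.20 to 0.16 over the omissions; the cause was not tested. The arm excess itself kept its sign, from 0.05 to 0.25. Scaling alternatives for bins without overlap were chosen after seeing the data. At 10 kb the round 1 Dam-EMR library had a median of only 29 reads per bin. The round 2 Dam-EMR library left 21.7% of the bins empty although it was deeper than that of round 1, and the cause was not tested.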
